A study of Homo sapiens with 12 samples.

Results

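The dual-specificity phosphatases and Sprouty proteins are feedback inhibitors of MAP kinase signalling, and 10 of their genes (DUSP1, DUSP2, DUSP4, DUSP5, DUSP6, DUSP10, DUSP14, SPRY1, SPRY2 and SPRY4) were followed here in human myeloma cells. Every probe set that the array's annotation pairs with exactly 1 of these genes was taken, which gave 18 of the 54675 probe sets on the array. Of these, 17 passed the filter on low values (above the median of their own array on at least 2 of 12 arrays) and were tested. The probe set of SPRY2 passed on 1 array alone and is given without a test.

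Messenger RNA levels were read on Affymetrix U133 Plus 2.0 arrays in 3 myeloma lines. MM.1S responds to the glucocorticoid dexamethasone, MM.1R was derived from it and resists that drug, and INA-6 needs interleukin 6 to grow. All lines stably expressed green fluorescent protein (GFP). Each was kept for 24 hours by itself or with HS-5, a GFP-negative human bone marrow stromal line, and GFP-positive cells were then sorted. These 6 groups have 2 arrays each, called technical replicates in the series text, so every p-value from the 12 arrays measures only the spread between duplicate arrays. HS-5 cells by themselves were not analysed here.

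A MAP kinase cascade carries a signal from a receptor through RAS and RAF to the kinases ERK, JNK or p38. Dual-specificity phosphatases of the MAP kinase phosphatase group switch these kinases off by removing the phosphates from a threonine and a tyrosine, and Sprouty proteins act upstream, between the receptor and RAF. Many of these genes are themselves switched on by the cascade they restrain, so that their messenger RNA is widely used as a readout of recent MAP kinase activity. In myeloma cells this pathway is known to respond to interleukin 6 and to other stromal factors, and to RAS mutations.

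Promoters were read for 8 of the 10 genes, in 12 windows of 250 bases before to 50 bases after a transcript start (RefSeq, GRCh38.p14). No window was available for DUSP4 and DUSP5. The motifs were searched on both strands by name or letters: the CArG box, which serum response factor binds; the cyclic AMP response element TGACGTCA and its shorter core TGACG, which overlap where the long form is present; the AP-1 site TGANTCA; and the STAT palindrome TTCNNNGAA. The promoter of DUSP1 is shown because DUSP1 had the largest rise shared by the lines and was the only gene among the 8 with the full TGACGTCA. It covers chr5:172771196-172771445 on the minus strand and ends at the base before the start. Capitals mark TGACG, TGACGTCA and, near the middle, TGACG read on the other strand.
DUSP1: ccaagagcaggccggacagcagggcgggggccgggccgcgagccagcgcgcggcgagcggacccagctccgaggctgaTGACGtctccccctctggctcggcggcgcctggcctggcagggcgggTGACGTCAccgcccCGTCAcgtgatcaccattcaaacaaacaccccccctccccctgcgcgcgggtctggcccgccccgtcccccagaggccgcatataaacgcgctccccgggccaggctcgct
TGACGTCA begins 125 bases before the start, and shorter TGACG matches begin 172 and, on the other strand, 111 bases before it. Of all 35116 windows in the table, 1.85% hold TGACGTCA and 24.6% hold TGACG.

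The shorter core also lay in 1 window each of SPRY2, SPRY4 and DUSP10. In DUSP10 it begins 4 bases before the start and runs across it. The Sprouty stretches are shown for comparison with DUSP1, from chr13:80341287-80341341 and chr5:142324286-142324340, both on the minus strand, with TGACG in capitals at 190 and 68 bases before the start.
SPRY2: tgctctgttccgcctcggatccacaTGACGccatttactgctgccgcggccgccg
SPRY4: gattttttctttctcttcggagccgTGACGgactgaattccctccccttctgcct
Among the 8 genes read, SPRY1 was the only 1 with a STAT palindrome, in the window of its second start, 188 bases before it (chr4:123398173-123398231, plus strand, palindrome in capitals).
SPRY1: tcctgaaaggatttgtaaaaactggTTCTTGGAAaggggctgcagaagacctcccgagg
That motif is present in 7.66% of all windows. Neither the CArG box (1.29% of all windows) nor TGANTCA (7.71%) was found in any of the 12 windows. A match is a description of these letters and is not evidence of binding.

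In each line more of these probe sets were higher after coculture than lower. The members were chosen with earlier results of these data known, so their counts beside those of all probe sets are descriptions and not a test. In MM.1S, 7 of the 17 tested probe sets rose and 0 fell, where 20.4% of all 35664 tested probe sets rose and 8.98% fell (limma, adjusted p under 0.05). In MM.1R, 7 rose and 1 fell, against 10.5% and 3.48% of all. In INA-6, 11 rose and 1 fell, against 35.2% and 12.5% of all. Several probe sets belong to the same gene. With the brightest probe set of each of the 9 tested genes, 5, 5 and 6 rose in MM.1S, MM.1R and INA-6, and 0 fell in each. Of all genes, 22.8%, 12.0% and 38.2% rose and 7.69%, 2.13% and 12.5% fell. The median log2 change of the 17 was 1.04 in MM.1S, 1.10 in MM.1R and 1.84 in INA-6, and over all tested probe sets it was 0.051, 0.022 and 0.40. The probe sets that rose in MM.1S and in MM.1R were the same 7, from DUSP1, DUSP2, DUSP5, DUSP6 (2 probe sets), DUSP10 and SPRY1. INA-6 added those of DUSP4 (3 probe sets) and another of DUSP6. Without all INA-6 arrays, whose duplicates alone agreed least, the same fit called 13 probe sets in MM.1S, 11 higher and 2 lower, a setting chosen after seeing the data, where 43.9% of all probe sets were called against 29.3% with INA-6. Leaving out either array of INA-6 alone also gave 13, where 46.3% of all were called. In MM.1R the count of 8 went to 5 without either array of MM.1S in coculture, the second of MM.1R alone, the first of MM.1R in coculture, or either of INA-6 in coculture. Rises made up 69.4%, 75.1% and 73.7% of all calls in MM.1S, MM.1R and INA-6, and 57.5%, 57.1% and 60.8% after quantile normalization, which also moved the median change of all probe sets in INA-6 from 0.40 to 0.16.

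**Figure D1:**
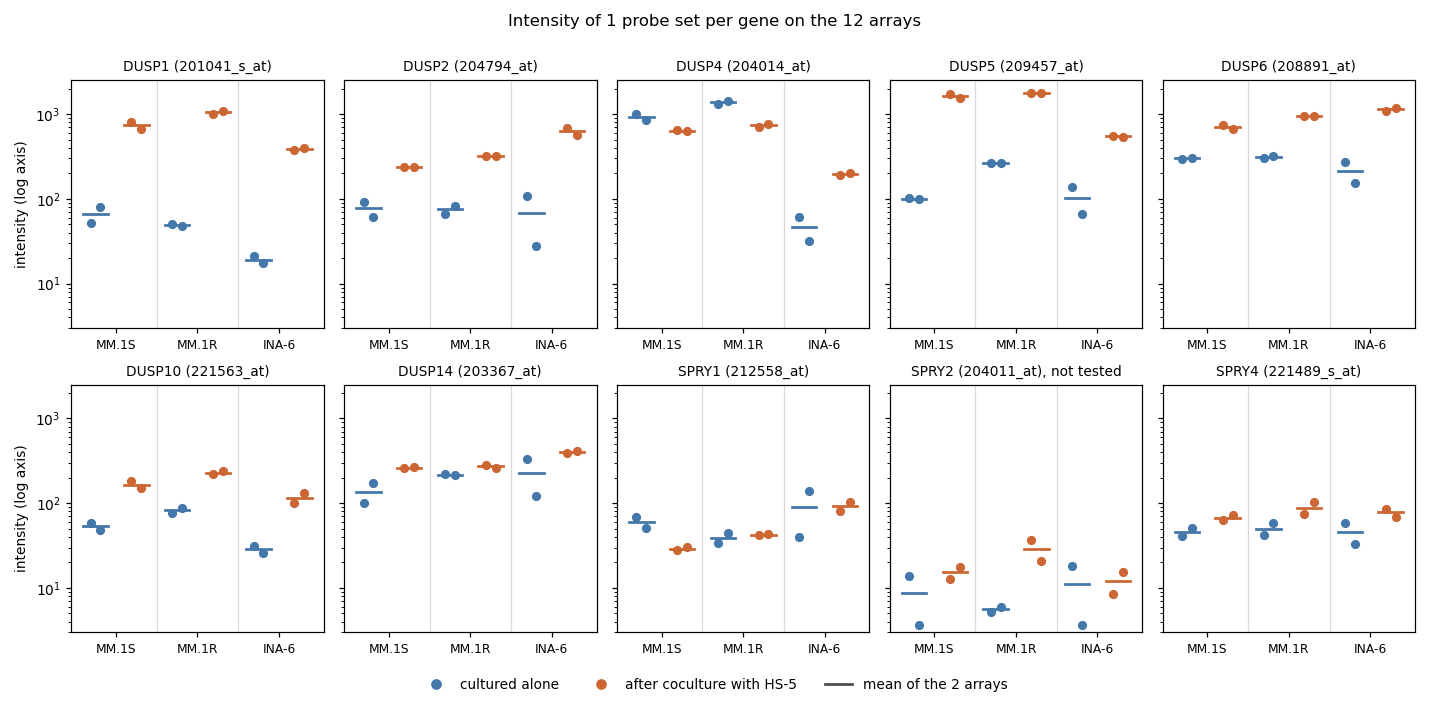
Intensity on a log axis of 1 probe set for each of the 10 genes, with the 3 lines on the horizontal axis; blue points are the 2 arrays of cells cultured alone, orange points the 2 arrays after coculture, and bars the group means. The coculture points of DUSP1, DUSP2, DUSP5, DUSP6 and DUSP10 lie above those of the same line alone in all 3 lines, while DUSP4 is lower after coculture in MM.1S and MM.1R and higher in INA-6.

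The groups also differed in other ways. The summed intensity of 24 stromal and fibroblast marker genes (collagens, fibronectin and others) was 1715 to 1981 in MM.1S alone and 11374 to 11613 after coculture, 2145 to 2244 and 21048 to 21548 in MM.1R, and 2914 to 4085 and 9895 to 10255 in INA-6. Of these 24 genes, 7, 8 and 6 lay below the array median on both arrays of MM.1S, MM.1R and INA-6 alone, and 0, 0 and 2 after coculture. Of 10 plasma cell markers, 0 lay below the array median on both arrays of any group. Their sum was 13029 to 13567 in MM.1S alone and 25450 to 25568 after coculture, and it was 18476 to 18860 and 25428 to 25612 in MM.1R and 17882 to 18070 and 15781 to 16086 in INA-6. The 3′ to 5′ signal ratio of ACTB, a sign of RNA integrity and labelling, was 22.4 alone and 5.10 after coculture in MM.1S, 31.4 and 5.21 in MM.1R, and 5.51 and 32.0 in INA-6. The mean signal of BioB, a spike-in control, was lower after coculture in every line. It was 1667 alone and 346 after coculture in MM.1S, 529 and 400 in MM.1R, and 3329 and 721 in INA-6. The part of these differences in the results that follow was not tested, and in sorted bulk samples a change in the cells present and a change in RNA per cell cannot be told apart.

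DUSP1 and DUSP5 are nuclear, inducible phosphatases. DUSP1 inactivates p38, JNK and ERK and is an immediate-early gene. On its brightest probe set, 201041_s_at, DUSP1 read 52.4 and 80.8 in MM.1S alone and 802 and 675 after coculture. It read 50.4 and 47.7 in MM.1R alone and 1018 and 1098 after coculture, and 21.1 and 17.4 against 379 and 401 in INA-6. Every coculture array was above every array of cells alone, whatever the line. The log2 change was 3.40 ± 0.23 in MM.1S (SE; adjusted p = 5.64e-05), 4.30 ± 0.23 in MM.1R (adjusted p = 1.89e-05) and 4.03 ± 0.23 in INA-6 (adjusted p = 1.12e-05), by limma. Over the lines as replicates (6 group means) DUSP1 rose by 3.91 ± 0.40 (adjusted p = 0.0122), in 3 of 3 lines. The order of its group means, from INA-6 alone (19.2) through MM.1R alone (49.0), MM.1S alone (66.6), INA-6 (390.02), MM.1S (738) and MM.1R (1058) in coculture, had no overlap between neighbours.

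The other 2 probe sets annotated to DUSP1 disagreed with this. The ending _x_at marks a probe set that may match other transcripts, and _s_at one shared by several transcripts. Probe set 201044_x_at stayed dim: it read 11.3 and 30.6 in MM.1S alone and 15.3 and 20.4 after coculture, 24.0 and 12.4 against 24.6 and 23.7 in MM.1R, and 74.6 and 15.2 against 21.8 and 16.6 in INA-6. All neighbouring groups overlapped on it, and its log2 changes of -0.087, 0.38 and -0.74 in MM.1S, MM.1R and INA-6 did not pass the test (adjusted p = 0.936, 0.806 and 0.360). Probe set 226578_s_at read 39.4 and 104 in MM.1S alone and 41.1 and 32.8 after coculture, and 37.4 and 45.5 against 29.2 and 25.9 in MM.1R. In INA-6 it read 150.5 and 242 alone and 17.9 and 32.5 after coculture. It was thus brightest in INA-6 alone, where 201041_s_at was dimmest. It fell by 2.74 ± 0.44 (log2, SE) in INA-6 (limma, adjusted p = 0.00131), while its changes of -0.74 in MM.1S and -0.51 in MM.1R did not pass (adjusted p = 0.261 and 0.569). Over the 12 arrays the log2 values of 201041_s_at correlated with those of 226578_s_at at r = -0.74 and with those of 201044_x_at at r = -0.16, a description over arrays that share lines and conditions. The rise of DUSP1 was thus seen on its brightest probe set and on neither of the other 2.

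**Figure D2:**
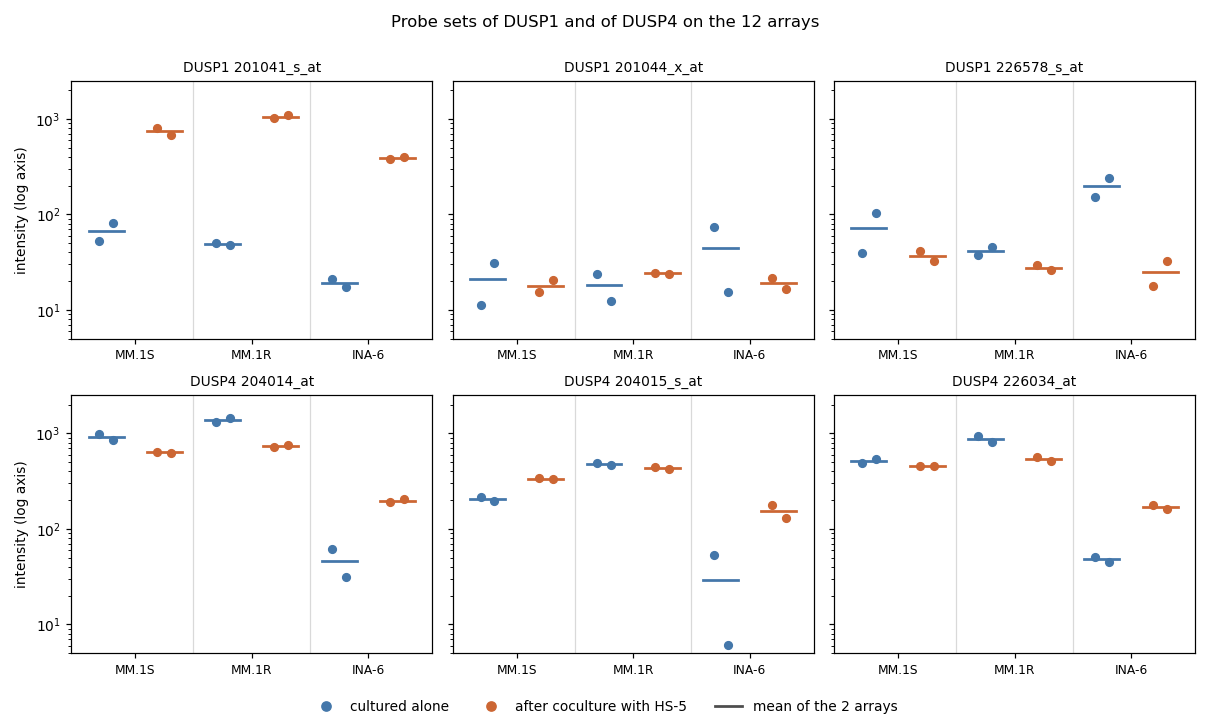
Intensity on a log axis of the 3 probe sets of DUSP1 (top) and the 3 of DUSP4 (bottom) on each array, blue for cells alone and orange for coculture, with bars at the group means. DUSP1 201041_s_at rises in every line while 226578_s_at falls from 196 to 25.2 in INA-6, and the DUSP4 probe sets share the low level of INA-6 alone.

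DUSP5 encodes a nuclear phosphatase specific for ERK. It read 102 and 100.1 in MM.1S alone and 1719 and 1561 after coculture, 267 and 265 against 1789 and 1794 in MM.1R, and 138 and 67.0 against 556 and 539 in INA-6. The lowest coculture array (INA-6) lay above the highest array of cells alone (MM.1R). The log2 change was 3.96 ± 0.29 in MM.1S (SE; adjusted p = 7.58e-05), 2.73 ± 0.29 in MM.1R (adjusted p = 0.000715) and 2.44 ± 0.29 in INA-6 (adjusted p = 0.000286), by limma. These 3 changes differed by the F-test over the lines (adjusted p = 0.0441), although neither MM.1R against MM.1S (-1.23 ± 0.41, adjusted p = 0.216) nor INA-6 against the MM.1 lines (-0.90 ± 0.36, adjusted p = 0.0832) passed alone. The difference between INA-6 and the MM.1 lines passed in 4 of 20 alternatives, among them quantile normalization (-1.43), and was -0.40 and -1.40 without the first and second array of INA-6 alone. DUSP5 rose by 3.04 ± 0.45 over the lines as replicates (adjusted p = 0.0385), in 3 of 3 lines. That call was kept in 17 of 24 alternatives, with adjusted p up to 0.0950 (quantile normalization). Leaving out either array of INA-6 alone lost it, at adjusted p = 0.0504 and 0.0661.

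DUSP1 and DUSP5 were the 2 of 17 probe sets called over the lines as replicates, both higher, where 1.11% of all probe sets were called higher and 0.0168% lower. The median change of the 17 in that fit was 1.45, against 0.18 for all tested probe sets. The fit has 2 residual degrees of freedom, and MM.1R descends from MM.1S. In the same fit with the 12 arrays not averaged, which treats duplicates as replicates, 11 of the 17 were called, where 28.1% of all probe sets were. With duplicates averaged but without the line INA-6, which leaves MM.1S and its derivative MM.1R, the number was 9, where 22.9% of all were called. Without MM.1R that share was 0.847%, and without MM.1S it was 1.66%. DUSP1 on 201041_s_at kept its call in 24 of 24 alternatives, these included. The adjusted p of DUSP6 on 208891_at was 0.250 without MM.1R, and that of DUSP10 on 221563_at was 0.401 without MM.1S (limma). With all 3 lines and averaged duplicates the share was 1.13%.

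DUSP2, a nuclear phosphatase best known from activated lymphocytes and leukocytes, read 93.1 and 61.8 in MM.1S alone and 239.7 and 240.3 after coculture. It read 67.0 and 83.1 in MM.1R alone and 319 and 317 after coculture, and 107 and 28.1 against 696 and 564 in INA-6. The 3 groups of cells alone overlapped, and all 3 coculture groups stood above them. The log2 change was 1.60 ± 0.49 in MM.1S (SE; adjusted p = 0.0411), 2.02 ± 0.49 in MM.1R (adjusted p = 0.0289) and 3.38 ± 0.49 in INA-6 (adjusted p = 0.000786), by limma. The larger change in INA-6 was not separated from the MM.1 lines (difference 1.57 ± 0.60, adjusted p = 0.0745; called in 2 of 20 alternatives), and over the lines as replicates DUSP2 did not pass (2.33 ± 0.47, adjusted p = 0.0804). That difference was 2.45 without the first array of INA-6 alone, where it passed (adjusted p = 0.000501), and 0.69 without the second (adjusted p = 0.107). The calls in MM.1S and MM.1R were lost under many settings: that in MM.1S was kept in 8 of 21 alternatives, with adjusted p up to 0.176, and that in MM.1R in 12 of 21, with adjusted p up to 0.149.

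DUSP4, a nuclear phosphatase for ERK and JNK, behaved differently in INA-6 from the MM.1 lines. On its brightest probe set, 204014_at, it read 992 and 863 in MM.1S alone and 645 and 627 after coculture. It read 1329 and 1433 in MM.1R alone and 714 and 759 after coculture, and 60.9 and 31.6 against 192 and 204 in INA-6. The arrays of the 2 conditions did not overlap within any line, and every INA-6 array lay below every array of the MM.1 lines. DUSP4 rose by 2.05 ± 0.27 (log2, SE) in INA-6 (limma, adjusted p = 0.000461), while the changes of -0.54 ± 0.27 in MM.1S (adjusted p = 0.178) and -0.90 ± 0.27 in MM.1R (adjusted p = 0.0623) did not pass. Without all INA-6 arrays both were called lower (adjusted p = 0.0159 and 0.00475), and without either array of INA-6 alone they were as well.

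The difference of the DUSP4 change between INA-6 and the mean of the MM.1 lines was 2.77 ± 0.33 on 204014_at (limma, adjusted p = 0.000463), and it was called in 20 of 20 alternatives that kept INA-6. Probe set 226034_at read 51.1 and 44.8 in INA-6 alone and 176 and 163 after coculture, a change of 1.72 ± 0.18 (adjusted p = 0.000130). In MM.1R it fell from 932 and 813 to 561 and 513, by 0.69 ± 0.18 (adjusted p = 0.0341), and in MM.1S it read 492 and 538 against 456 and 451. The call in MM.1R was kept in 9 of 20 alternatives, with adjusted p up to 0.203. It was lost with arrays centred on their median (adjusted p = 0.0928), with no filter (0.0804), with the replicate block (0.0525), and without any 1 array of MM.1R or any 1 coculture array. Probe set 204015_s_at gave 52.7 and 6.02 in INA-6 alone and 176 and 131 after coculture, 2.64 ± 0.62 (adjusted p = 0.00847). That value was 3.83 without the first and 1.44 without the second array of INA-6 alone, and without the first array of INA-6 in coculture it did not pass (adjusted p = 0.0526). In the MM.1 lines 204015_s_at did not share the direction of the other probe sets: its changes were 0.70 in MM.1S and -0.12 in MM.1R, neither passing. Without all INA-6 arrays its change in MM.1S was called higher (limma, adjusted p = 0.00421), where 204014_at was called lower. The change of 226034_at in MM.1S (-0.18) did not pass in that fit (adjusted p = 0.301). The 3 probe sets thus gave no shared direction for DUSP4 in MM.1S. The difference between INA-6 and the MM.1 lines passed on all 3 probe sets, with 2.35 on 204015_s_at (adjusted p = 0.0415; called in 6 of 19 alternatives, adjusted p up to 0.136) and 2.16 on 226034_at (adjusted p = 0.000207). On 204015_s_at it was 3.54 and 1.15 without the first and second array of INA-6 alone, and it did not pass without any 1 other array. Of the measures given above, the ACTB ratio rose after coculture in INA-6 and fell in the MM.1 lines. The plasma cell sum fell in INA-6 and rose in the MM.1 lines, while the stromal sum rose and the BioB signal fell in every line. The part of these in the difference was not tested.

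DUSP6, the cytoplasmic phosphatase specific for ERK and a standard readout of ERK activity, rose in every line. On its brightest probe set, 208891_at, it read 299.7 and 301 in MM.1S alone and 736 and 677 after coculture. It read 308 and 321 in MM.1R alone and 958 and 959 after coculture, and 274 and 154 against 1085 and 1195 in INA-6. Every coculture array was brighter than every array of cells alone. The log2 change was 1.22 ± 0.26 in MM.1S (SE; adjusted p = 0.00834), 1.59 ± 0.26 in MM.1R (adjusted p = 0.00505) and 2.44 ± 0.26 in INA-6 (adjusted p = 0.000151), by limma. Without the first array of MM.1S in coculture the change in MM.1S was 1.16 and its adjusted p 0.0622. The change of 1.75 ± 0.42 over the lines as replicates did not pass (adjusted p = 0.108).

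The other DUSP6 probe sets moved the same way but differed in size. On 208893_s_at the values were 47.4 and 73.4 against 268 and 242 in MM.1S, 81.3 and 92.1 against 347 and 334 in MM.1R, and 128 and 124 against 356 and 384 in INA-6. Its changes of 2.02 ± 0.22, 1.92 ± 0.22 and 1.52 ± 0.22 (SE) all passed (limma, adjusted p = 0.000350, 0.00104 and 0.000784), and the last was 0.68 after quantile normalization. On 208892_s_at the change in INA-6 was 3.46 ± 0.37 (adjusted p = 0.000167), from 148 and 58.0 to 1071 and 1086, and those in MM.1S (1.04, adjusted p = 0.0713) and MM.1R (1.10, adjusted p = 0.0951) did not pass. Without all INA-6 arrays, the setting chosen after seeing the data, those in MM.1S and MM.1R passed (limma, adjusted p = 0.00580 and 0.00844). The probe sets split on whether INA-6 responded more than the MM.1 lines. The difference was 1.04 ± 0.32 on 208891_at (adjusted p = 0.0330; called in 7 of 20 alternatives, adjusted p up to 0.119, and 0.63 without the second array of INA-6 alone), 2.39 ± 0.46 on 208892_s_at (adjusted p = 0.00447) and -0.45 ± 0.27 on 208893_s_at (adjusted p = 0.233).

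DUSP10 acts on JNK and p38 rather than on ERK. Probe set 221563_at read 58.0 and 48.6 in MM.1S alone and 182 and 149.7 after coculture, 77.1 and 87.7 against 219 and 239 in MM.1R, and 31.5 and 25.9 against 101 and 131 in INA-6. Every coculture array was again above every array of cells alone. The log2 changes were close to each other, at 1.55 ± 0.22 in MM.1S (SE; adjusted p = 0.00108), 1.42 ± 0.22 in MM.1R (adjusted p = 0.00367) and 1.84 ± 0.22 in INA-6 (adjusted p = 0.000256), by limma, and the F-test of a difference between them did not pass (adjusted p = 0.550). The change of 1.60 ± 0.38 over the lines as replicates did not pass (adjusted p = 0.103). The dimmer probe set 215501_s_at had changes of 1.24, 2.03 and 1.09 that did not pass (adjusted p = 0.239, 0.103 and 0.238). Without all INA-6 arrays its changes in MM.1S and MM.1R passed (limma, adjusted p = 0.0444 and 0.0133). Its duplicates of INA-6 alone read 70.1 and 8.23, and its change in INA-6 was 2.34 without the first and -0.16 without the second.

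DUSP14 is a small atypical phosphatase, known as a brake on T cell receptor signalling. It read 99.3 and 172 in MM.1S alone and 257 and 269.5 after coculture, 219.8 and 212 against 282 and 262 in MM.1R, and 333 and 121 against 392 and 418 in INA-6. Both coculture arrays of each line were above both arrays of that line alone, but the changes of 0.98, 0.33 and 0.99 did not pass (limma, adjusted p = 0.128, 0.739 and 0.0912). In INA-6 the value depended on which duplicate was kept, with 1.70 (adjusted p = 0.00187) without the first and 0.28 (adjusted p = 0.456) without the second. In MM.1S the change passed without all INA-6 arrays (adjusted p = 0.0246).

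**Figure D3:**
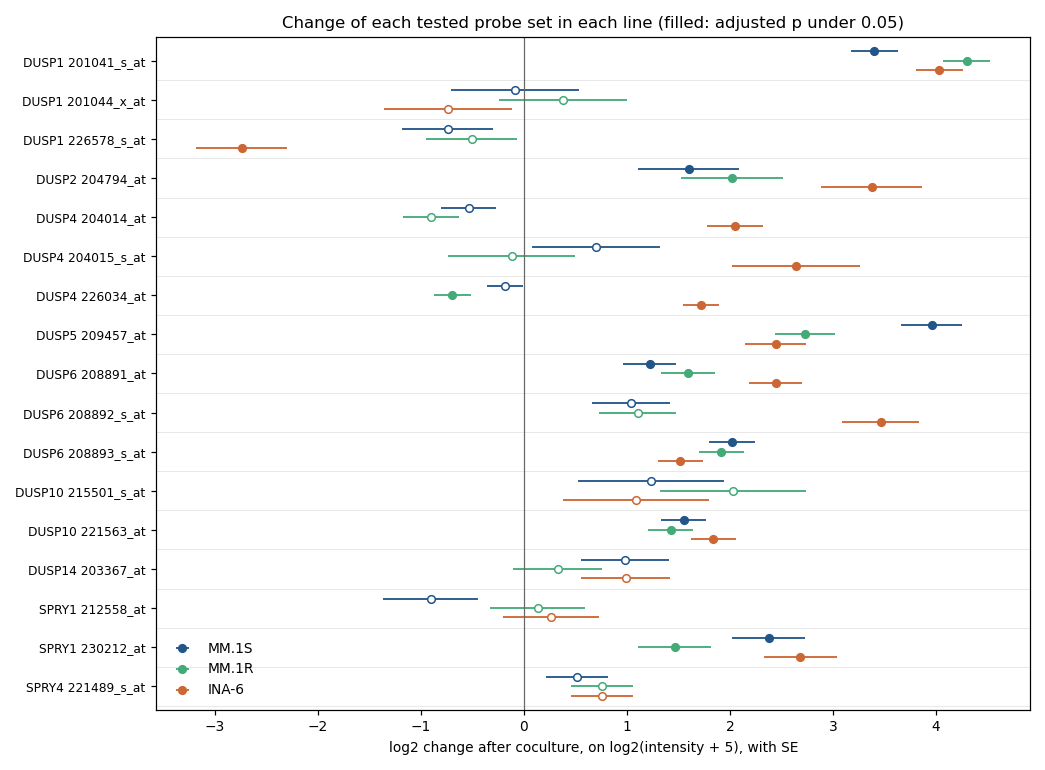
Log2 change after coculture, with its SE, of the 17 tested probe sets in MM.1S (blue), MM.1R (green) and INA-6 (orange); filled points passed the test at an adjusted p under 0.05 and open points did not. The DUSP1 and DUSP5 changes reach furthest right, the DUSP4 points of INA-6 stand apart from those of the MM.1 lines, and DUSP1 226578_s_at in INA-6 lies at -2.74.

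Sprouty genes were dim on this array, and their probe sets gave a mixed picture. SPRY1 had 2 tested probe sets that disagreed. On 212558_at, the brighter, SPRY1 read 68.2 and 50.7 in MM.1S alone and 28.1 and 30.1 after coculture, 33.6 and 44.1 against 42.0 and 43.4 in MM.1R, and 40.3 and 138 against 81.2 and 104 in INA-6. Its changes of -0.91, 0.13 and 0.26 did not pass (limma, adjusted p = 0.189, 0.919 and 0.668), and those of MM.1R and INA-6 turned to -0.013 and -0.35 after quantile normalization. Without all INA-6 arrays the lower value in MM.1S passed (adjusted p = 0.0114). Without the first array of INA-6 alone the change in INA-6 was -0.56 (adjusted p = 0.0779), and without the second it was 1.09 and passed (adjusted p = 0.00824).

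On 230212_at SPRY1 read 7.43 and 4.35 in MM.1S alone and 45.8 and 56.7 after coculture. It read 24.7 and 10.9 in MM.1R alone and 73.4 and 41.0 after coculture, and 23.5 and 25.4 against 185 and 183 in INA-6. The coculture arrays were all above the arrays of cells alone, and INA-6 in coculture was far above the rest. The log2 change was 2.38 ± 0.35 in MM.1S (SE; adjusted p = 0.00151), 1.46 ± 0.35 in MM.1R (adjusted p = 0.0280) and 2.68 ± 0.35 in INA-6 (adjusted p = 0.000475), by limma. In MM.1R the call was kept in 12 of 20 alternatives. It was lost after quantile normalization (1.24, adjusted p = 0.0651), with arrays centred on their median (1.43, adjusted p = 0.0546), without either array of MM.1S or INA-6 in coculture, without the second array of MM.1R alone (1.01, adjusted p = 0.185) and without the first of MM.1R in coculture (1.08, adjusted p = 0.195). Over the 12 arrays the 2 SPRY1 probe sets correlated at r = 0.20, with the same limits as for DUSP1.

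SPRY4, which like SPRY1 acts between receptor and RAF, read 41.1 and 50.9 in MM.1S alone and 63.0 and 72.1 after coculture. It read 42.6 and 57.9 in MM.1R alone and 74.1 and 103 after coculture, and 58.1 and 32.9 against 86.3 and 69.6 in INA-6. All 6 coculture arrays were above all 6 arrays of cells alone, by small margins, and the changes of 0.51, 0.75 and 0.75 did not pass (limma, adjusted p = 0.252, 0.155 and 0.0702). Without the first array of INA-6 alone, the change in INA-6 was 1.12 and passed (adjusted p = 0.0103). SPRY2 read 13.7 and 3.65 against 12.9 and 17.7 in MM.1S, 5.26 and 6.0 against 37.1 and 20.8 in MM.1R, and 18.3 and 3.69 against 8.53 and 15.5 in INA-6. Only the first coculture array of MM.1R exceeded its array's median, so these values carry no test.

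Some members differed between INA-6 and the MM.1 lines before any contact with stroma, in counts near the shares of all tested probe sets. In cells cultured alone, 7 of the 17 probe sets were lower and 3 higher in INA-6 than in the mean of the MM.1 lines, where 32.8% of all tested probe sets were lower and 19.0% higher. DUSP4 had the largest difference, with -4.53 ± 0.23, -3.67 ± 0.15 and -3.65 ± 0.54 (log2, SE) on its 3 probe sets (limma, adjusted p = 2.21e-06, 1.01e-06 and 0.000614). DUSP1 on 201041_s_at (-1.35, adjusted p = 0.000625), DUSP10 on 221563_at (-1.08, adjusted p = 0.00147), DUSP6 on 208892_s_at (-1.50, adjusted p = 0.00491) and DUSP5 (-0.74, adjusted p = 0.0389) were lower in INA-6. DUSP6 on 208893_s_at (0.77, adjusted p = 0.00966), DUSP1 on 226578_s_at (1.79, adjusted p = 0.00465) and SPRY1 on 230212_at (0.94, adjusted p = 0.0310) were higher. The DUSP5 call was kept in 6 of 20 alternatives, with adjusted p up to 0.496, and its value was -1.23 without the first and -0.24 without the second array of INA-6 alone. The SPRY1 call was kept in 13 of 19, with adjusted p up to 0.107, and was lost without either array of INA-6 alone or the second of MM.1S or MM.1R alone. The DUSP6 value on 208892_s_at was -0.86 without the second array of INA-6 alone, and still passed (adjusted p = 0.00683).

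MM.1R and MM.1S cultured alone differed on 2 probe sets, both higher in MM.1R, where 5.81% of all probe sets were higher and 1.14% lower. DUSP5 was higher by 1.35 ± 0.29 (log2, SE; limma, adjusted p = 0.0315; called in 10 of 21 alternatives, adjusted p up to 0.180), and DUSP4 on 226034_at by 0.75 ± 0.18 (adjusted p = 0.0416; called in 5 of 20, adjusted p up to 0.270). Both calls were lost on leaving out any 1 of the 8 arrays of the MM.1 lines, or either array of INA-6 in coculture. Without all INA-6 arrays 4 probe sets passed, which were DUSP5 and all 3 of DUSP4, where 19.3% of all were called.

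The size of the coculture change was also compared between the lines. The F-test over the 3 lines called 5 of the 17 probe sets, where 32.8% of all were called: DUSP4 (204014_at and 226034_at), DUSP5, DUSP6 (208892_s_at) and DUSP1 (226578_s_at). The count of 5 was 3 without any 1 of the MM.1 arrays in coculture or of MM.1R alone, 2 without either array of INA-6 in coculture, and 10 and 8 without the first and second array of INA-6 alone. The change in INA-6 exceeded that of the MM.1 lines on 5 probe sets and was below it on 1, against 24.1% and 12.8% of all, and that count of 6 was 3 without the first array of INA-6 in coculture, 4 without the second or any 1 array of the MM.1 lines, and 9 without either array of INA-6 alone. For MM.1R against MM.1S, 0 of the 17 passed (limma; 2, DUSP1 201041_s_at and DUSP5, at an unadjusted p under 0.05), where 0.0701% of all were higher and 0.328% lower. Without all INA-6 arrays 2 passed, DUSP5 (-1.23, adjusted p = 0.0184) and DUSP4 on 204015_s_at (-0.82, adjusted p = 0.0360), where 9.15% of all were called. A missed threshold does not show that the resistant line and its parent respond alike.

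Over the 12 arrays, the patterns of the brightest probe sets fell into close and distant pairs, given as descriptions over arrays that share lines, conditions and labelling. The highest correlations of log2 values were DUSP2 with DUSP6 (r = 0.97), DUSP5 with DUSP10 (r = 0.95) and DUSP1 with DUSP10 (r = 0.94). The lowest were SPRY1 with DUSP4 (r = -0.61), with DUSP5 (r = -0.50) and with DUSP10 (r = -0.43). Between probe sets of the same gene, r was 0.91 to 0.99 for DUSP4, 0.71 to 0.95 for DUSP6 and 0.75 for DUSP10.

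Genes around these phosphatases were counted from lists of other family members, feedback inhibitors, targets and kinases, with 1 probe set per gene. The lists were chosen with earlier results of these data known, and no list was tested as a set. Over all 15052 genes tested, 22.8% rose and 7.69% fell in MM.1S, 12.0% and 2.13% in MM.1R, and 38.2% and 12.5% in INA-6. Over the lines as replicates 1.48% rose and 0.00664% fell. The median change of all genes was 0.11, 0.093 and 0.47 in MM.1S, MM.1R and INA-6. Where 5 or fewer genes of a pathway list passed, they are named, chosen after their values were seen. For the stromal and plasma cell markers only counts are given.

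The ERK-responsive transcription targets, genes that ERK signalling switches on, were higher after coculture in most cases. Of 15 tested, 9 rose in MM.1S, 10 in MM.1R and 10 in INA-6, and 1, EGR1, fell in INA-6 (-1.21, adjusted p = 0.0396). The median change was 1.86, 1.64 and 1.59. IER3, a stress-inducible target and regulator of ERK, rose by 5.03, 6.26 and 4.44 in MM.1S, MM.1R and INA-6, and by 5.24 ± 0.47 (log2, SE) over the lines as replicates (limma, adjusted p = 0.00959). ETV5 (2.97, adjusted p = 0.0262), an ETS factor, and PHLDA1 (3.33, adjusted p = 0.0437) passed there too. At the other end of the list EGR3 had -0.58 (adjusted p = 0.448).

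The other Sprouty, SPRED and ERK feedback inhibitors included 8 tested genes. In MM.1S 5 rose (ERRFI1, SPRED1, SPRED2, CBL and PEBP1) and 1 fell (SPRED3). In MM.1R 4 rose (ERRFI1, SPRED1, SPRED2 and LRIG1), and in INA-6 7 rose and 1 fell (SPRED3). The median change was 1.02, 0.79 and 2.14. ERRFI1, an inhibitor of the EGF receptor family, rose by 4.97, 5.89 and 3.86 in the 3 lines and by 4.91 ± 0.49 over the lines as replicates (limma, adjusted p = 0.0115). SPRED3 had the lowest value there (-0.72, adjusted p = 0.407).

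Calls among the other dual-specificity phosphatases were near or below the shares of all genes, given above. Of 14 tested, 2 rose (DUSP22 and DUSP23) and 1 fell (DUSP8) in MM.1S, 2 rose in MM.1R (DUSP3 and DUSP22), and 5 rose (DUSP7, DUSP8, DUSP11, DUSP22 and DUSP28) and 1 fell (DUSP21) in INA-6. Their median change was -0.033, 0.062 and 0.49, near that of all genes. Over the lines as replicates 0 passed by limma (3 at an unadjusted p under 0.05); the extremes were DUSP23 (1.05, adjusted p = 0.254) and DUSP15 (-0.68, adjusted p = 0.436). No test set this list against the members.

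Kinases and adaptors of the cascades had more calls in INA-6. Of 15 ERK cascade genes tested, 3 rose in MM.1S (MAP2K1, MAPK3 and RPS6KA3), 1 in MM.1R (MAP2K1) and 13 in INA-6, where EGFR fell by 1.94 (limma, adjusted p = 0.00172). The median changes were 0.50, 0.30 and 1.67. MAPK3, which encodes ERK1, had changes of 1.64 (adjusted p = 0.0109), 0.70 (adjusted p = 0.286) and 3.65 (adjusted p = 0.000121). Over the lines as replicates MAPK3 (2.0, adjusted p = 0.158) and EGFR (-0.79, adjusted p = 0.432) were the extremes. Of 14 JNK and p38 cascade genes, 6 rose in MM.1S, 2 in MM.1R (JUN and MAPKAPK2) and 9 in INA-6, with medians of 0.46, 0.31 and 1.62. JUN, the AP-1 subunit that JNK phosphorylates, rose by 2.49, 2.39 and 2.51 in the 3 lines and by 2.46 ± 0.37 over the lines as replicates (adjusted p = 0.0406), and MAPK13 was lowest there (-0.047, adjusted p = 0.957).

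**Figure D4:**
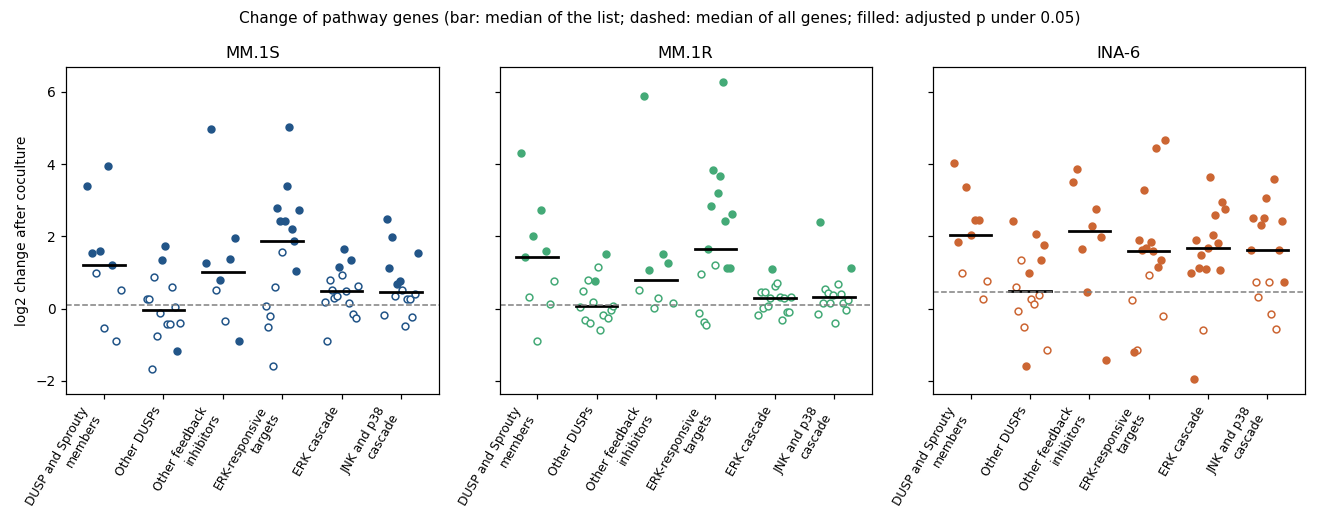
Log2 change after coculture of each tested gene in the member set (1 probe set per gene) and in 5 pathway lists, in the 3 lines; filled points passed at an adjusted p under 0.05, black bars are list medians and the dashed line is the median of all genes. The ERK targets have medians of 1.86, 1.64 and 1.59, and the medians of the kinase lists are 0.30 and 0.31 in MM.1R and 1.67 and 1.62 in INA-6.

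Stromal markers rose in the same comparisons as these lists: of 24 tested, 15 rose in MM.1S, 16 in MM.1R and 12 in INA-6, where 1 fell, and 8 rose over the lines as replicates. Of 10 plasma cell markers, 7, 3 and 3 rose, and 3 fell in INA-6. The part of stromal RNA in the changes of the phosphatase and Sprouty genes was not tested.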

How the data were processed

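Gene expression was compared on 12 arrays in 6 groups of 2. The authors deposited an intensity for each probe set on a linear scale. MAS5 made them per the submitters' processing notes, whereas the series text describes dChip modelling with averaged duplicates. Which of them made the values is unsettled, versions were not given in the sources used, and the table holds each array separately. Array medians lay between 19.78 and 24.09. The number of arrays limits the precision.

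Values were taken to log2 after adding 5, which understates changes of dim probe sets. A probe set was tested if above its own array's median on at least 2 arrays (35664 were). Fits used limma 3.58.1 in R 4.3.3: a mean per group over 12 arrays (6 residual degrees of freedom), and, over the lines as replicates, 6 group means with the line as a block. Tests were two-sided moderated tests, adjusted by Benjamini-Hochberg over all tested probe sets, with a threshold of 0.05. A gene was represented by its brightest tested probe set. Every member probe set is named, and of each pathway list the largest rise and fall over the lines. The members and lists were chosen with earlier results of these data known. Replicate numbers were not used to pair arrays in the main fits. Over 15 group pairs the deviations of replicate 1 correlated at -0.52 to 0.58, 6 above 0.1. Between the 2 conditions of the same line they correlated at 0.38 in MM.1S, 0.58 in MM.1R and 0.078 in INA-6. A pairing within the MM.1 lines is therefore not excluded, and the replicate block, which is shared by all lines, cannot take up shifts of opposite sign between lines. The fits were tested on simulated data. No protein sequences were used here.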

Additional observations from a re-analysis of the deposited data

Results flagged for a closer look

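The response to coculture differed between the lines on several probe sets, each tested in the 12-array limma fit. The F-test over the 3 lines called 5 of the 17, near the share of 32.8% called among all tested probe sets. For DUSP4 the F-test over the 3 lines gave an adjusted p of 0.00139 on 204014_at and 0.000614 on 226034_at, and the change in INA-6 exceeded that of the MM.1 lines by 2.77, by 2.16 and, on 204015_s_at, by 2.35. For DUSP6 the F-test passed on 208892_s_at (adjusted p = 0.0127), where INA-6 exceeded the MM.1 lines by 2.39. The difference was 1.04 on 208891_at, and on 208893_s_at it was -0.45 and did not pass (limma, adjusted p = 0.233). The calls of this difference on DUSP4 204015_s_at and DUSP6 208891_at were lost under many settings, as given above. For DUSP1 226578_s_at the F-test gave an adjusted p of 0.0420 and a difference of -2.12, which was called in 17 of 19 alternatives. For DUSP5 the F-test gave an adjusted p of 0.0441.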

How the results depend on the processing

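The alternatives changed the pseudocount, normalization, filter, probe set, replicate block or arrays. Of 1576 recomputed values of single probe sets that carry a test, 1395 kept their direction and their side of the threshold, 36 uncalled values changed sign, 75 lost and 57 gained a call, and 13 reversed. Part of this was fixed in advance. Leaving out an array of another line, or changing the filter or the block, cannot alter the change within a line, only its adjusted p. Among 17 probe sets, 7 were called in MM.1S (leaving out 1 array, 5 to 13; without all INA-6 arrays 13), 8 in MM.1R (5 to 12; with 1 probe set per gene, which tests 9, 5), and 12 in INA-6 (11 to 15; 1 per gene, 6). Over the lines as replicates 2 were called (1 to 3): 1 with pseudocount 1, pseudocount 20, quantile normalization or no filter, 11 with arrays not averaged, 10 with these and a replicate block, and 9 without INA-6. The F-test called 5 (2 to 10), 3 with pseudocount 1 or no filter and 2 with 1 per gene. INA-6 against the MM.1 lines gave 6 (3 to 9), 2 with 1 per gene. MM.1R against MM.1S gave 0 (0 to 1), 2 without all INA-6 arrays. In cells alone, INA-6 gave 10 (8 to 13; 4 with 1 per gene), and MM.1R against MM.1S gave 2 (0 to 4): 1 with pseudocount 1, quantile normalization, median centring, 1 per gene or the replicate block, 0 with no filter, and 4 without all INA-6 arrays. With the replicate block the counts elsewhere were 7 in MM.1S, 7 in MM.1R, 12 in INA-6 and 4 for the F-test.

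Another probe set turned the direction of a gene's value in some cases. For DUSP1, 201044_x_at and 226578_s_at gave -0.087 and -0.74 in MM.1S, -0.74 and -2.74 in INA-6, -0.15 and -1.33 over the lines, and 0.79 and 1.79 for INA-6 against the MM.1 lines alone, and 226578_s_at gave -0.51 in MM.1R and -2.12 for the difference of the change. For DUSP6, 208893_s_at gave -0.45 for that difference and 0.77 for the lines alone. For SPRY1, 230212_at gave 2.38 in MM.1S. The cause was not tested.

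Over all tested probe sets, the count over the lines as replicates was 402 (193 to 594 leaving out 1 array), against 10024 with arrays not averaged, 8938 with a replicate block as well, 8150 without INA-6, 183 with quantile normalization, 207 with pseudocount 20 and 176 with no filter. That count was 302 without MM.1R and 592 without MM.1S. For MM.1R against MM.1S it was 142 for the change (0 to 4770 leaving out 1 array, 0 with no filter or the replicate block, 3265 without all INA-6 arrays, 1130 with pseudocount 20, 424 with quantile normalization, 44 with pseudocount 1). In cells alone it was 2478 (0 to 8265 leaving out 1 array, 6894 without all INA-6 arrays, 1533 with no filter). In MM.1R it was 4978 (2025 to 11001; 9947 without all INA-6 arrays).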
